A study of Mus musculus with 12 samples.

Results

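The 10 genes described here are Nr1h3, Nr1h2, Abca1, Abcg1, Apoe, Mylip, Srebf1, Scd2, Lpcat3 and Arl4c, the genes of the liver X receptors (LXRs) and their targets in cholesterol efflux and lipid handling. They were taken by symbol from the 55401 genes of each of 2 bulk RNA-seq count tables of tumor-associated macrophages (TAMs), and each symbol was on 1 row. The study set TAMs with an AMPK deletion against their controls to ask how AMPK regulates these cells, and TAMs of late-stage against early-stage tumors to ask how they resist cell death as tumors progress. All 12 samples were TAMs sorted by flow cytometry from mice that carried subcutaneous B16-F10 tumors, a transplanted mouse melanoma line, with 3 samples per group. In the first table, the WT samples are labelled AMPKfl/fl, a genotype that names no Cre, and the AMPK-KO samples from AMPKfl/fl mice labelled Lyz2cre/cre, both taken on day 15. Lyz2, the lysozyme gene, drives Cre in macrophages, monocytes and neutrophils, so that the deletion need not be limited to TAMs. For AMPK-KO replicates 2 and 3 the genotype label writes Lyz3 and Lyz4 in place of Lyz2, while their titles write Lyz2. In the second table, the early-stage samples came from day 8 and the late-stage samples from day 15, and both are labelled WT in genotype. The methods give female C57BL/6 mice of 5 weeks. The treatment label of every sample is Non, and nothing says how many mice stood behind a sample, so p-values measure the spread between these samples, which may be technical.

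LXRs are nuclear receptors that bind oxysterols, the oxidized products of cholesterol. Paired with an RXR, they sit on DNA elements made of repeated half-sites and switch from repression to activation when a ligand arrives. In macrophages their targets move cholesterol out of the cell, lower its uptake through lipoprotein receptors and change the fatty acids of membranes, and lipid-laden macrophages of atherosclerotic plaques are the setting in which they are best known.

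The LXR element is written as DR4, that is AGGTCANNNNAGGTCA, 2 half-sites with 4 free letters between them. RefSeq promoter windows of GRCm38.p6, each with 250 bases before and 50 bases after a gene's start, were given for 8 of the 10 genes (13 windows). They were scanned on both strands for DR4 with at most 3 mismatches among the 12 fixed letters. A match was present for 3 of these 8 genes, Abca1, Srebf1 and Arl4c, against 24.5% of 27025 genes, and in 3 of the 13 windows, against 21.9% of 32851 windows. The 250 bases before the start are shown for these 3 genes, since they are the stretches in which such letters occur, with the match in capitals and each sequence on the gene's strand (minus). They are Abca1 at chr4:53159896-53160145, Srebf1 at chr11:60210472-60210721, before a start inside the gene, and Arl4c at chr1:88702192-88702441.
Abca1: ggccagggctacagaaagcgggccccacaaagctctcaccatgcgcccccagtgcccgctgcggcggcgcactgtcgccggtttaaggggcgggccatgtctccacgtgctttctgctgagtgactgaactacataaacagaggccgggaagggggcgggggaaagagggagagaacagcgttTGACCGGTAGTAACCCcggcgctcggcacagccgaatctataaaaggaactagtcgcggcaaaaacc
Srebf1: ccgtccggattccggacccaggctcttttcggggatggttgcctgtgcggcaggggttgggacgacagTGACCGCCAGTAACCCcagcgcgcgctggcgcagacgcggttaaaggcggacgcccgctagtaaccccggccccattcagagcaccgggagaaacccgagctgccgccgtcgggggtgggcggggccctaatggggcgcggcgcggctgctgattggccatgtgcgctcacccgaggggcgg
Arl4c: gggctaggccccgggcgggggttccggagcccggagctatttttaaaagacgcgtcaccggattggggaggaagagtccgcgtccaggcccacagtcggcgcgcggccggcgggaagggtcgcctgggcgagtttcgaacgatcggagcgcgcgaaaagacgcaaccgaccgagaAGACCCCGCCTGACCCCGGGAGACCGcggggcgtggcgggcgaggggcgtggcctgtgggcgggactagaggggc
Read on the opposite strand, the match of Abca1 is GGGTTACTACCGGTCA and that of Srebf1 is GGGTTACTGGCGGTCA, each with 3 mismatches. The capitals of Arl4c hold 2 overlapping matches, GGGTCAGGCGGGGTCT and CGGTCTCCCGGGGTCA, also with 3 mismatches each. The matches begin 67 bases before the start in Abca1, 182 in Srebf1, and 75 and 65 in Arl4c. Such a match describes letters only and does not show that LXR binds there.

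The libraries held 71019494 to 84470374 counts. Levels are given as CPM, counts scaled to the TMM-adjusted total of each library. Prkaa1, the AMPK alpha subunit gene expressed in macrophages, stood at 62.8 to 68.8 CPM in WT and at 40.8 to 47.0 CPM in AMPK-KO (log2 fold change -0.60, SE 0.073, edgeR adjusted p = 0.000226), so that its transcript fell but remained detectable. Lyz2, one of the most abundant macrophage transcripts, was at 9.16 to 13.5 CPM in both WT and AMPK-KO, but at 2476 to 3009 CPM in early-stage and 1092 to 1129 CPM in late-stage TAMs. The transcript of the locus used for the Cre was thus as low in the libraries labelled AMPKfl/fl as in those labelled Lyz2cre/cre. The labels do not say why, and whether the libraries labelled AMPKfl/fl carry a Cre was not tested. The low level was seen in all 3 WT libraries, so no comparison without such libraries could be made. WT below means the libraries labelled AMPKfl/fl. Over 4 Y-linked genes the early-stage samples had 3435 to 4035 counts and the late-stage samples 0 to 4, so that stage and this sex-linked signal cannot be told apart, whereas WT (9229 to 11360 counts) and AMPK-KO (11299 to 12183 counts) both carried it although the methods name female recipients. The 9 macrophage markers summed to 12099 to 12111 CPM in AMPK-KO against 12337 to 13134 CPM in WT, and to 11072 to 11150 CPM in late-stage against 9605 to 11017 CPM in early-stage TAMs. In AMPK-KO 2 of the 9 rose, Itgam (0.55 on the log2 scale, edgeR adjusted p = 3.41e-05) and Csf1r (0.14, adjusted p = 0.0177), and 2 fell, Cd68 (-0.55, adjusted p = 1.18e-05) and Mrc1 (-0.51, adjusted p = 9.99e-05). Between stages C1qa rose (0.49, adjusted p = 0.0291) and Mrc1 fell (-0.62, adjusted p = 0.00187).

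Markers of other cells moved with both comparisons. In AMPK-KO against WT, the summed level of 4 monocyte markers was 762 to 793 against 434 to 476 CPM (3 of 4 rose), that of 7 B16 melanoma markers 676 to 716 against 998 to 999 CPM (6 of 7 fell), that of 6 fibroblast markers 741 to 822 against 570 to 617 CPM (6 of 6 rose), and that of 6 NK cell markers 110 to 117 against 39.9 to 47.7 CPM (6 of 6 rose). There, T cell markers (5 of 6 rose, 141 to 146 against 74.9 to 86.5 CPM) and those of conventional dendritic cells (6 of 6 rose, 87.1 to 96.2 against 53.7 to 59.4 CPM) were higher too, and 4 of 5 B cell markers fell (19.9 to 22.1 against 30.9 to 32.5 CPM). Neutrophil markers summed to 158 to 161 against 95.1 to 102 CPM (3 of 7 rose), while Ly6g and Ngp of that list were at 0 in every sample of the table. Nearly all of this sum was Csf3r, at 154 against 96.5 CPM on average. No other gene of that list averaged above 2.47 CPM in either group. Endothelial markers summed to 116 to 120 against 50.1 to 57.99 CPM (2 of 5 rose, 1 fell) and erythroid markers to 4.99 to 5.53 against 14.5 to 16.9 CPM (2 of 4 fell). Most of the endothelial sum was Pecam1, at 91.2 against 37.5 CPM on average. Kdr rose too (24.4 against 12.5 CPM), while Cdh5 fell (2.53 against 3.74 CPM). In late-stage against early-stage TAMs, monocyte markers summed to 203 to 231 against 497 to 583 CPM (3 of 4 fell), B16 markers to 767 to 1203 against 1663 to 1807 CPM (5 of 7 fell), fibroblast markers to 393 to 555 against 801 to 878 CPM (3 of 6 fell), and NK cell markers to 56.0 to 66.7 against 87.4 to 98.7 CPM (4 of 6 fell). T cell markers were higher there (147 to 169 against 116 to 128 CPM, 2 of 6 rose), as were B cell markers (57.5 to 82.9 against 37.3 to 41.8 CPM, 3 of 5 rose). Erythroid (7.69 to 8.60 against 10.2 to 12.7 CPM, 1 of 4 fell) and endothelial markers (76.5 to 80.5 against 83.7 to 87.8 CPM, 1 of 5 fell) had lower sums, while those of neutrophils (64.4 to 79.4 against 73.8 to 87.0 CPM, 2 of 7 fell) and conventional dendritic cells (55.0 to 59.4 against 56.6 to 65.7 CPM, 1 of 6 rose and 1 fell) overlapped between stages. Csf3r made up nearly all of the neutrophil sum between stages too, at 69.7 CPM in late-stage against 76.9 CPM in early-stage TAMs on average. Plasmacytoid dendritic cell, basophil and mast cell markers summed to under 5 CPM in every sample. No marker of the monocyte, B16, fibroblast and NK cell lists was at 0 in every sample of a table. Their part in the results on the 10 genes was not tested, and in bulk samples fewer cells of a type and less RNA per cell cannot be told apart.

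In AMPK-KO TAMs both LXR genes and the efflux transporter gene Abcg1 were higher than in WT, Apoe was lower, and the other 6 genes, Abca1 included, did not pass the test. A gene was called where its adjusted p in edgeR's quasi-likelihood test was under 0.05 over all genes tested, at any fold. By this rule 3 of the 10 genes rose, against 11.3% of the 17532 genes tested, and 1 fell, against 9.78%. All 10 passed the filter on low counts, and their median log2 fold change was 0.03, beside -0.00 over all genes tested. None of the 10 also had an absolute log2 fold change above 1, which 3.34% of the genes tested had.

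In late-stage TAMs Abca1 and Scd2 were lower than in early-stage TAMs, and none of the 10 genes was called higher. The 2 that fell compare with 4.88% of 17630 genes tested, and the 0 that rose with 4.31%. At an unadjusted p under 0.05 there were 0 higher (against 12% of the genes tested) and 4 lower (against 12.4%). DESeq2 likewise called 0 higher (against 7.3%) and 4 lower (against 7.73%), adding Nr1h3 and Mylip to the latter. Those 4 were also the genes called lower when early-stage replicate 3 was left out, and without early-stage replicate 2 only Scd2 was. The median log2 fold change was -0.04 over the 10 genes and 0.00 over all genes tested. None of the 10 passed an absolute log2 fold change of 1 as well, against 1.87% of all genes tested.

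**Figure D1:**
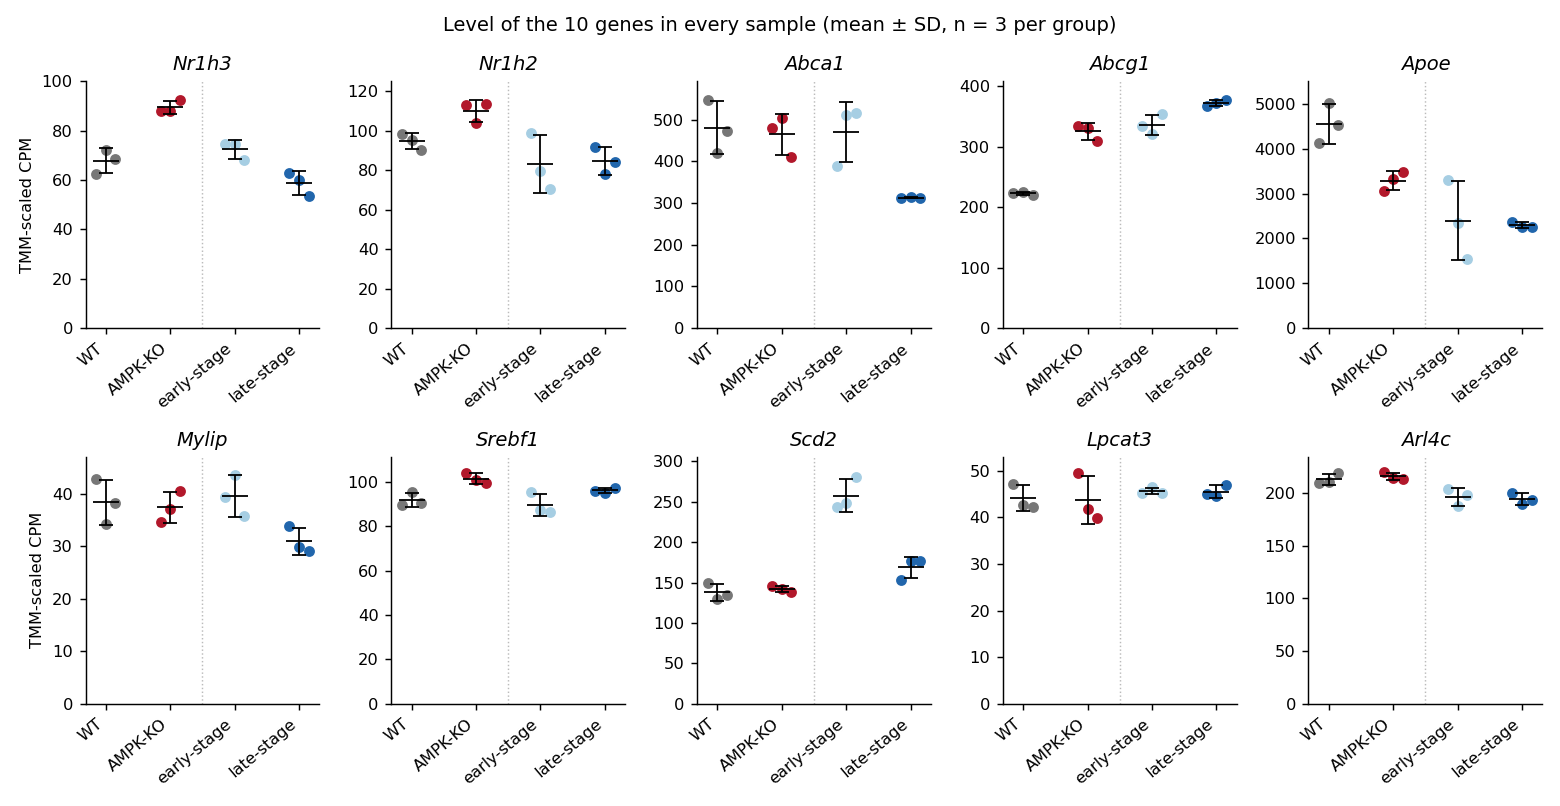
Level of each of the 10 genes in TMM-scaled CPM (y axis, from 0) in the 12 samples (points), by group (x axis), with the mean and SD of 3 samples per group; a dotted line parts the 2 tables. The 3 AMPK-KO points of Abcg1 lie between 310 and 335 CPM, all above the WT points, and the 3 late-stage points of Abca1 lie between 312 and 314 CPM, all below the early-stage points.

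Nr1h3 encodes LXR alpha, which is abundant in macrophages and liver (chr2:91184061-91202834, minus strand, GRCm38, as all gene positions below). It stood at 62.4, 72.4 and 68.7 CPM in WT and at 87.9, 88.1 and 92.5 CPM in AMPK-KO, where CPM are scaled by the trimmed mean of M values (TMM). All 3 AMPK-KO samples were above all 3 WT samples, and the log2 fold change was 0.40 (SE 0.064, edgeR adjusted p = 0.00147). In the other table it stood at 74.7, 74.6 and 68.1 CPM in early-stage and at 63.0, 60.0 and 53.5 CPM in late-stage TAMs. These groups did not overlap either, but the log2 fold change of -0.30 (SE 0.086) missed the threshold in edgeR (adjusted p = 0.0591), while DESeq2 gave an adjusted p of 0.0194.

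Nr1h2 encodes LXR beta, the receptor found in most cell types (chr7:44549616-44553951, minus). Its levels were 98.2, 95.5 and 90.5 CPM in WT and 113, 104 and 114 CPM in AMPK-KO. The groups did not overlap, and the rise was smaller than that of Nr1h3, with a log2 fold change of 0.22 (SE 0.058, edgeR adjusted p = 0.0227). This call did not hold when WT replicate 3 (adjusted p = 0.124), AMPK-KO replicate 1 (0.0886) or AMPK-KO replicate 3 (0.0732) was left out. Early-stage samples ranged widely, at 99.2, 79.5 and 70.7 CPM, and enclosed the late-stage samples at 92.0, 78.2 and 84.1 CPM (log2 fold change 0.03, SE 0.12, adjusted p = 0.916).

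Abca1 encodes the transporter that loads cholesterol and phospholipid onto lipid-poor apolipoprotein A-I (chr4:53030787-53159895, minus). In WT it was at 548, 421 and 473 CPM and in AMPK-KO at 481, 503 and 410 CPM, so that the groups overlapped (log2 fold change -0.05, SE 0.097, adjusted p = 0.785). By contrast, early-stage TAMs had 388, 510 and 516 CPM and late-stage TAMs 312, 314 and 313 CPM. The late-stage samples were nearly equal and lay below all early-stage samples, of which replicate 1 was the nearest. The log2 fold change was -0.59 (SE 0.10, edgeR adjusted p = 0.00748). Without early-stage replicate 2 the adjusted p was 0.0536, and with any other single sample left out it stayed under 0.05.

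Abcg1 encodes the transporter that passes cholesterol to mature HDL particles and moves sterols inside the cell (chr17:31057675-31117988, plus). It showed the smallest p of the 10 genes in the AMPK-KO comparison. The WT samples were at 224, 225 and 221 CPM and the AMPK-KO samples at 335, 331 and 310 CPM, a gap larger than the spread within either group. The log2 fold change was 0.55 (SE 0.047, edgeR adjusted p = 2.23e-05), a rise of 46.0%. Late-stage TAMs, at 368, 372 and 378 CPM, also lay above early-stage TAMs, at 335, 321 and 354 CPM, but the log2 fold change of 0.15 (SE 0.067) was not called (adjusted p = 0.214). The late-stage samples, also of day 15 and without the deletion by label, lay above all WT and all AMPK-KO samples. The 2 tables were scaled apart, and this gap between them was not tested.

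Apoe encodes apolipoprotein E, which macrophages secrete as an acceptor of cholesterol (chr7:19696109-19699188, minus). The WT samples had 4133, 5020 and 4517 CPM and the AMPK-KO samples 3053, 3332 and 3476 CPM. Every AMPK-KO sample was lower than every WT sample, with a log2 fold change of -0.47 (SE 0.069, edgeR adjusted p = 0.00076), the opposite direction to Abcg1. Early-stage samples were at 3297, 2341 and 1540 CPM and late-stage samples were at 2374, 2256 and 2250 CPM. The early-stage range enclosed the late-stage samples, and the log2 fold change of -0.06 carried an SE of 0.21 (adjusted p = 0.896). The late-stage samples, also of day 15 and without the deletion by label, lay below all WT and all AMPK-KO samples. For Apoe too this gap between separately scaled tables was not tested.

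Arl4c encodes a small GTPase of the ARF family that acts in cholesterol transport to the plasma membrane (chr1:88673125-88702221, minus). It was among the steadiest of the 10 genes, with all 12 samples between 187 and 219 CPM. Its log2 fold change was 0.02 (SE 0.045, adjusted p = 0.817) in AMPK-KO and -0.02 (SE 0.068, adjusted p = 0.919) in late-stage TAMs.

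Mylip encodes IDOL, the ubiquitin ligase that sends lipoprotein receptors to degradation (chr13:45389742-45412022, plus). WT samples were at 42.8, 34.2 and 38.3 CPM and AMPK-KO samples at 34.6, 37.2 and 40.5 CPM, which overlapped (log2 fold change -0.04, SE 0.092, adjusted p = 0.829). It was lower in each late-stage sample (33.9, 29.8 and 29.2 CPM) than in each early-stage sample (39.4, 43.7 and 35.8 CPM). The log2 fold change of -0.36 (SE 0.10) had an edgeR adjusted p of 0.0635 and a DESeq2 adjusted p of 0.0181.

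Srebf1 encodes SREBP-1, the transcription factor of fatty acid synthesis that LXR induces (chr11:60199089-60222581, minus). It was at 89.5, 95.6 and 90.4 CPM in WT and at 104, 101 and 99.7 CPM in AMPK-KO. The groups did not overlap, but the log2 fold change of 0.15 (SE 0.052) was not called (edgeR adjusted p = 0.0762). Early-stage (95.5, 87.5 and 86.3 CPM) and late-stage samples (96.2, 95.2 and 97.3 CPM) differed by 0.10 on the log2 scale (SE 0.071, adjusted p = 0.434). Of its exon bases, 109 overlap Rai1 on the opposite strand, and the counting of strand is not given in the sources used here.

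Scd2 encodes a stearoyl-CoA desaturase, which makes monounsaturated fatty acids in many tissues outside the liver (chr19:44293674-44306864, plus). It was at 149, 130 and 135 CPM in WT and at 146, 143 and 138 CPM in AMPK-KO, with no called difference (log2 fold change 0.04, SE 0.060, adjusted p = 0.676). Between stages it fell from 243, 249 and 281 CPM to 154, 177 and 177 CPM. The groups stood far apart, and the log2 fold change was -0.61 (SE 0.086, edgeR adjusted p = 0.0022).

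Lpcat3 encodes the enzyme that puts polyunsaturated fatty acids into membrane phospholipids (chr6:124663027-124704418, plus). Its 12 samples lay between 39.9 and 49.4 CPM. The log2 fold change was -0.01 (SE 0.087, adjusted p = 0.943) in AMPK-KO and -0.00 (SE 0.074, adjusted p = 0.986) in late-stage TAMs. Emg1 on the opposite strand shares 334 of its exon bases (10.2%), so that reads there may belong to either gene.

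Counted by whether the groups overlapped, 5 of the 10 genes stood apart in AMPK-KO against WT, against 37.2% of the genes tested, and 5 of 10 in late-stage against early-stage, against 31.2%. The former were Nr1h3, Nr1h2, Abcg1, Srebf1 and Apoe and the latter Nr1h3, Abca1, Mylip, Scd2 and Abcg1.

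**Figure D2:**
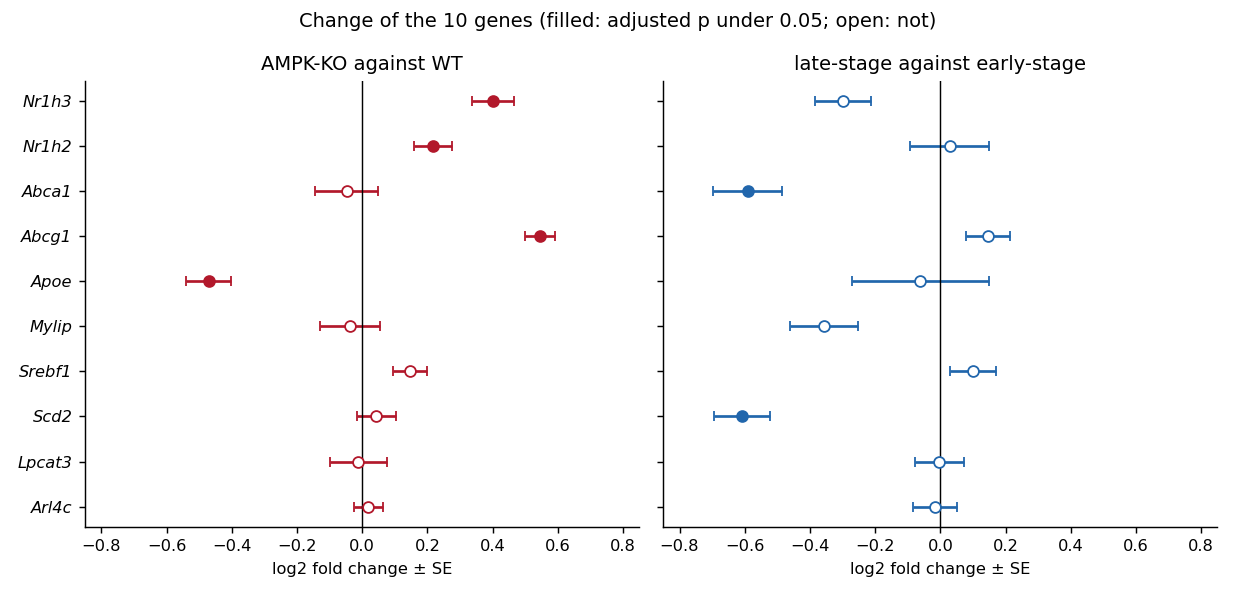
Log2 fold change (x axis) with its SE (bars) of the 10 genes (y axis) in AMPK-KO against WT (left) and late-stage against early-stage TAMs (right), with filled points where the adjusted p was under 0.05. Abcg1 lies at 0.55 on the left, and Abca1 and Scd2 lie at -0.59 and -0.61 on the right.

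Whether a gene moved differently in the 2 comparisons was tested in a fit of all 12 samples, as the AMPK-KO effect minus the late-stage effect. Of the 10 genes, 4 differed, against 12.6% of 19073 genes tested. For Nr1h3 the difference was 0.71 on the log2 scale (SE 0.11, adjusted p = 0.000356), with effects of opposite sign, of which edgeR did not call the late-stage one. For Scd2 it was 0.66 (SE 0.11, adjusted p = 0.000757) and for Abca1 0.55 (SE 0.16, adjusted p = 0.034), both of which fell between stages and were not called in AMPK-KO. Abcg1 had a difference of 0.41 (SE 0.077, adjusted p = 0.00211), with higher means in both AMPK-KO and late-stage TAMs. For Apoe the difference was -0.40, but with an SE of 0.25 (adjusted p = 0.364), and for Mylip it was 0.33 (SE 0.15, adjusted p = 0.179). Nr1h2, Srebf1, Lpcat3 and Arl4c had differences between 0.00 and 0.20 with adjusted p from 0.444 up. The comparisons share no samples.

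Set against each other per length, as CPM per kb of exon, the 10 genes spanned more than 2 orders of magnitude. Apoe was the highest in every group, at 2131 ± 208 CPM per kb in WT, 1537 ± 101 in AMPK-KO, 1119 ± 412 in early-stage and 1073 ± 32.7 in late-stage TAMs (SD, n = 3). Its level ranked 13 and 19 among 17012 genes in WT and AMPK-KO and 29 among 17108 genes in both stages. Mylip was the lowest in every group, from 9.58 ± 0.787 CPM per kb in late-stage to 12.3 ± 1.22 in early-stage TAMs, and next above it was Lpcat3, from 13.4 to 13.95. The ranges of Mylip and Lpcat3 overlapped in WT and AMPK-KO but not in either stage.

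The middle of the order shifted between groups. In WT it ran Abca1 (46.4 ± 6.14 CPM per kb), Arl4c (38.7), Abcg1 (30.6 ± 0.285), Nr1h2 (28.3), Nr1h3 (27.0), Scd2 (25.2) and Srebf1 (16.3), and the ranges of Nr1h2 and Nr1h3 and of Nr1h3 and Scd2 overlapped. In AMPK-KO Abcg1 (44.6 ± 1.85) overlapped Abca1 (44.8 ± 4.70), and Nr1h3 (35.6) stood above Nr1h2 (32.9) without overlap. In early-stage TAMs Scd2 (47.2 ± 3.69), Abcg1 (46.1) and Abca1 (45.5) followed Apoe and overlapped as neighbors. In late-stage TAMs Abcg1 (51.1 ± 0.696) came next after Apoe and lay above Arl4c (35.4) without overlap, while Scd2 (30.9 ± 2.42) and Abca1 (30.2 ± 0.102) followed and overlapped.

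Ratios of 2 genes within a sample, taken from levels per length, are given as a description and were not tested. Abcg1 to Abca1 was 0.580, 0.758 and 0.663 in WT and 0.990, 0.935 and 1.07 in AMPK-KO, and it was 1.23, 0.893 and 0.974 in early-stage and 1.68, 1.68 and 1.71 in late-stage TAMs. Neither pair of groups overlapped in this ratio. Between stages this follows from the levels, since Abcg1 was higher and Abca1 lower in every late-stage sample. Nr1h3 to Nr1h2 was 0.847, 1.01 and 1.01 in WT and 1.04, 1.13 and 1.08 in AMPK-KO, and 1.00, 1.25 and 1.28 in early-stage against 0.913, 1.02 and 0.849 in late-stage TAMs, where the stages overlapped. In every AMPK-KO sample Apoe was lower and Abcg1 higher than in WT, so that their ratio had to differ. Apoe to Abcg1 was 63.1, 76.3 and 69.9 in WT and 31.1, 34.3 and 38.3 in AMPK-KO. In the early-stage samples it was 33.6, 24.9 and 14.8, a range that held the late-stage values of 22.0, 20.7 and 20.3. Scd2 to Scd1, its paralog and another LXR and SREBP-1 target, was 7.56, 7.37 and 8.06 in WT and 12.02, 15.1 and 15.2 in AMPK-KO. Between stages this ratio overlapped, at 9.95, 9.26 and 7.88 in early-stage and 10.1, 6.99 and 6.09 in late-stage TAMs.

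**Figure D3:**
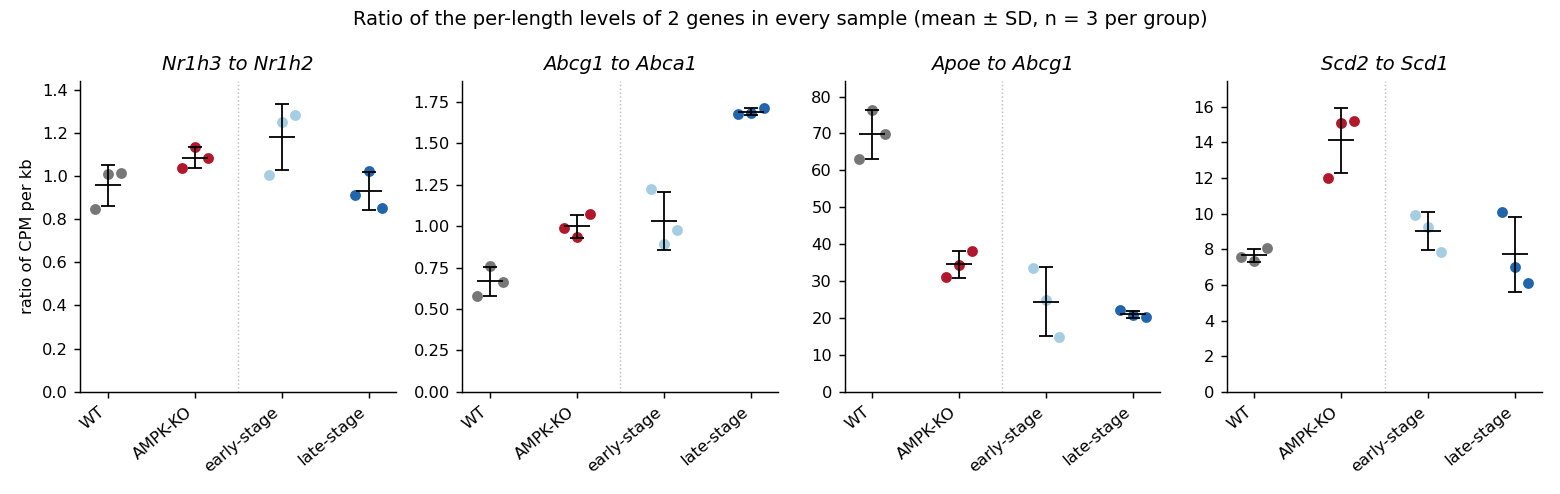
Ratio of the levels per length (CPM per kb) of 2 genes in each of the 12 samples (points) by group (x axis), with the mean and SD of 3 samples per group, for Nr1h3 to Nr1h2, Abcg1 to Abca1, Apoe to Abcg1 and Scd2 to Scd1. The Abcg1 to Abca1 ratio lies between 1.68 and 1.71 in late-stage TAMs, and the Apoe to Abcg1 ratio lies between 31.1 and 38.3 in AMPK-KO, below every WT sample.

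Samples of 1 group differed in how long and short transcripts were balanced. Among the 10 genes Abca1 (10.4 kb of exon) and Abcg1 (7.30 kb) are the longest and Apoe (2.14 kb) the shortest. The balance was looked at after the values of these genes were seen. The median log2 deviation of genes with over 7.01 kb of exon minus that of genes with up to 2.88 kb was -0.19, 0.02 and 0.17 in early-stage replicates 1, 2 and 3, where Abca1 was lowest and Apoe highest in replicate 1. In WT, with bounds of 6.98 and 2.89 kb, it was 0.09, -0.21 and -0.10, and in WT too the sample with the lowest value, replicate 2, had the lowest Abca1 and the highest Apoe. The late-stage values were 0.05, -0.03 and -0.02 and those of AMPK-KO 0.15, 0.10 and -0.04. The lowest and the highest AMPK-KO value each lay above those of WT, though the groups overlapped. In AMPK-KO, Abcg1 was higher and Apoe lower than in WT. The part of the balance in the results was not tested.

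Abca1 was followed further by the genes whose levels varied most like it over the 12 samples, with each table centered on its mean. Among 8942 genes with a mean of at least 10 CPM in both tables, the leading 2 were Rnf150 (r = 0.97) and Mpp5 (r = 0.96). Rnf150 stood at 43.9 CPM in early-stage and 33.3 CPM in late-stage TAMs, beside 46.3 CPM in WT and 45.8 CPM in AMPK-KO. The 12 points share their groups and the balance of long and short transcripts, so the r values are a description only.

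The wider LXR and cholesterol pathway was followed through 8 lists with 100 distinct genes tested in each comparison. The last list holds relatives of the 10 genes by family or name, not pathway genes as such. In AMPK-KO 20 of the 100 genes rose (against 11.3% of all genes tested) and 13 fell (against 9.78%), with a median log2 fold change of 0.07. The list of relatives, with 15 genes tested, held 8 of these rises and 2 of the falls. In late-stage TAMs 8 rose (against 4.31%) and 7 fell (against 4.88%), with a median of -0.06. There the list of relatives held 3 of the rises and 0 of the falls. The lists were written with earlier results of these data known. The late-stage counts moved with single samples: without early-stage replicate 1 they were 15 higher and 14 lower, and without early-stage replicate 2 or any of the late-stage replicates 3 to 5 higher and 2 to 3 lower. In AMPK-KO 13 rose without WT replicate 3.

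**Figure D4:**
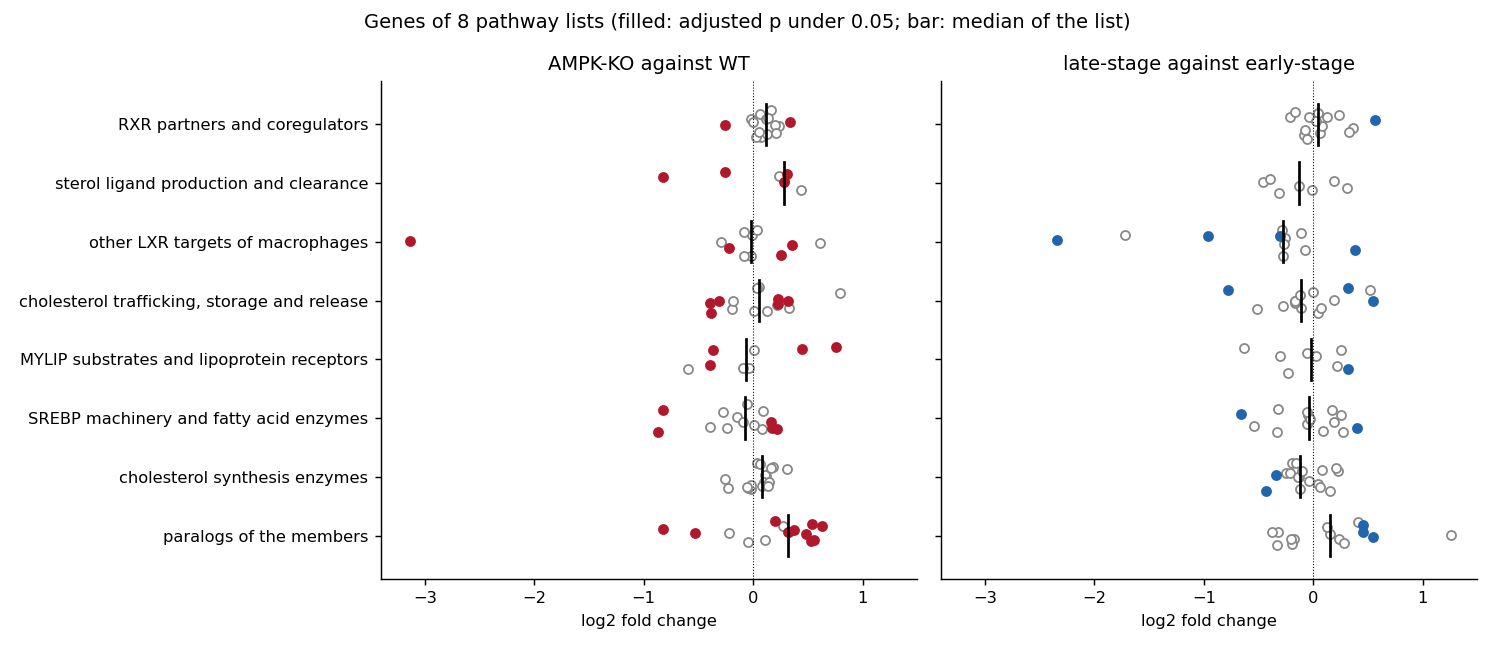
Log2 fold change (x axis) of the tested genes of 8 pathway lists (y axis, points spread vertically for sight) in AMPK-KO against WT (left) and late-stage against early-stage TAMs (right), with filled points at an adjusted p under 0.05 and a bar at each list's median. The leftmost point in both panels is Cd5l, at -3.13 and -2.34.

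Among 15 tested RXR partners and coregulators, 1 rose and 1 fell in AMPK-KO (median 0.12). Tbl1xr1, a subunit of the NCoR corepressor complex, rose from 51.7 to 65.4 CPM on average (0.34 on the log2 scale, adjusted p = 0.00187), and Rxra, the partner receptor of LXR, fell from 110 to 91.8 CPM (-0.26, adjusted p = 0.00378). The coactivator gene Ncoa1 was at 0.24 on the log2 scale (adjusted p = 0.0883) and the corepressor gene Ncor1 at 0.07 (adjusted p = 0.676). In late-stage TAMs 1 of the 15 rose and 0 fell (list median 0.04). Rxra was at -0.09 (adjusted p = 0.521) and Ncor1 at 0.06 (adjusted p = 0.754), while Rxrb (0.36) and Nrip1 (0.33) had adjusted p of 0.0964 and 0.124.

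Of 7 tested genes of sterol ligand production and clearance, 2 rose and 2 fell in AMPK-KO (median 0.28). Cyp27a1, a mitochondrial enzyme that makes oxysterol ligands of LXR, rose from 27.6 to 33.5 CPM (0.28 on the log2 scale, adjusted p = 0.0207), and Hsd3b7, which clears oxysterols toward bile acids, rose from 66.2 to 82.2 CPM (0.31, adjusted p = 0.00181). Ch25h, the cholesterol hydroxylase induced by interferon, fell from 79.5 to 66.4 CPM (-0.26, adjusted p = 0.00473), and Gpr183, a receptor for oxysterols that guides cell migration, fell from 32.2 to 18.2 CPM (-0.82, adjusted p = 5.91e-05). In late-stage TAMs 0 of the 7 were called by edgeR (median -0.13), while 1 higher and 2 lower had an unadjusted p under 0.05 and DESeq2 called 1 higher and 1 lower. There Cyp27a1 (0.19, adjusted p = 0.574), Ch25h (0.31, adjusted p = 0.0898) and Gpr183 (-0.40, adjusted p = 0.100) missed the threshold. The call on Cyp27a1 in AMPK-KO was lost without WT replicate 1 or any of the 3 AMPK-KO replicates, which left 1 of the 7 higher.

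Among 11 tested other LXR targets of macrophages, 2 rose and 2 fell in AMPK-KO (median -0.02), and 1 rose and 3 fell in late-stage TAMs (median -0.27). Cd5l, which encodes the secreted survival factor AIM, had the widest change of all 8 lists in both. It fell from 48.2 ± 2.62 to 5.50 ± 0.484 CPM in AMPK-KO (SD, n = 3; -3.13 on the log2 scale, SE 0.093, edgeR adjusted p = 3.88e-08) and from 18.7 ± 0.754 to 3.69 ± 0.504 CPM in late-stage TAMs (-2.34, SE 0.14, adjusted p = 1.38e-05). Pltp, the phospholipid transfer protein gene, rose in AMPK-KO from 784 to 937 CPM (0.26, adjusted p = 0.000913) and was at -0.29 between stages (adjusted p = 0.0833). Lpl, the lipoprotein lipase gene, fell in AMPK-KO from 710 to 611 CPM (-0.22, adjusted p = 0.00955) and was at -0.11 between stages (adjusted p = 0.563). Ccr7, a chemokine receptor gene, rose in both, by 0.35 in AMPK-KO (adjusted p = 0.00391) and by 0.38 in late-stage TAMs (adjusted p = 0.0199). The lipoprotein gene Apoc2 (-0.96, adjusted p = 0.00273) and the phosphodiesterase gene Smpdl3a (-0.31, adjusted p = 0.0267) fell between stages. Mertk, a receptor for the uptake of dead cells, was at -0.02 (adjusted p = 0.873) and -0.26 (adjusted p = 0.0887). Lpl lost its call without WT replicate 3. Between stages Ccr7 lost it without early-stage replicate 2 or late-stage replicate 2 or 3, and Smpdl3a without early-stage replicate 2 or any late-stage replicate.

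In the list of cholesterol trafficking, storage and release 3 of 15 genes rose and 3 fell in AMPK-KO (median 0.05). The genes that fell were Lipa, the lysosomal acid lipase (422 to 323 CPM, -0.38, adjusted p = 0.000323), Nceh1, a neutral cholesterol ester hydrolase (175 to 141 CPM, -0.31, adjusted p = 0.00194), and Gramd1b, a sterol carrier of the endoplasmic reticulum (59.9 to 45.6 CPM, -0.39, adjusted p = 0.00352). Npc2, the soluble lysosomal cholesterol carrier, rose (0.22, adjusted p = 0.0238), as did Scarb1, the HDL receptor (0.23, adjusted p = 0.0124), and Abca7, a close relative of Abca1 (0.32, adjusted p = 0.00871). The lysosomal membrane carrier gene Npc1 was at -0.19 (adjusted p = 0.0646) and the cholesterol esterifying enzyme gene Soat1 at 0.05 (adjusted p = 0.479). Without WT replicate 3, 0 of the 15 were called higher. Npc2 also lost its call without WT replicate 1 or AMPK-KO replicate 2 or 3, and Scarb1 without AMPK-KO replicate 1.

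Between stages 2 of these 15 rose and 1 fell (median -0.11). Abca7 rose from 46.6 to 67.9 CPM (0.54, adjusted p = 0.0199) and Scarb1 from 75.2 to 93.5 CPM (0.31, adjusted p = 0.0300), while Cav1, the caveolin gene, fell from 13.3 to 7.71 CPM (-0.78, adjusted p = 0.0252). Soat1 was at -0.27 at the edge of the threshold (adjusted p = 0.0504), and Npc1 (-0.11, adjusted p = 0.368) and Npc2 (-0.17, adjusted p = 0.167) did not pass. All 3 calls were lost without early-stage replicate 2, late-stage replicate 1 or late-stage replicate 2, Scarb1 also without late-stage replicate 3 and Cav1 also without early-stage replicate 3.

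Of 8 genes of MYLIP substrates and other lipoprotein receptors, 2 rose and 2 fell in AMPK-KO (median -0.06). Sorl1, a sorting receptor gene, rose from 38.0 to 64.3 CPM (0.76 on the log2 scale, adjusted p = 3.59e-05). Sort1, the sortilin gene (-0.37, adjusted p = 0.0123), and Lrp8, a receptor for Apoe (-0.39, adjusted p = 0.0318), fell. In late-stage TAMs 1 of the 8 was called (median -0.02), Lrp1, a large receptor for Apoe-bearing particles, which rose from 1577 to 1961 CPM (0.31, adjusted p = 0.0420) and was at -0.03 in AMPK-KO (adjusted p = 0.801). In AMPK-KO 0 of the 8 were called lower without AMPK-KO replicate 3, and Lrp8 lost its call also without AMPK-KO replicate 1 or 2 or WT replicate 1 or 3. Lrp1 lost its call between stages without early-stage replicate 3 or any late-stage replicate.

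Of 14 genes of the SREBP machinery and fatty acid enzymes, 3 rose and 2 fell in AMPK-KO (median -0.07). Srebf2, the SREBP of cholesterol synthesis (122 to 138 CPM, 0.18, adjusted p = 0.0393), Scap, the escort protein of SREBPs (0.22, adjusted p = 0.0411), and Acly, which makes cytosolic acetyl-CoA (0.16, adjusted p = 0.0467), rose. Scd1 fell from 16.1 to 9.14 CPM (-0.82, adjusted p = 0.00132), where Scd2 was not called, and Me1, the malic enzyme that supplies NADPH, fell from 19.3 to 10.5 CPM (-0.87, adjusted p = 0.000294). The 3 rises changed with single samples: 0 of the 14 were called higher without AMPK-KO replicate 1 or 2 or WT replicate 2 or 3, nor without a filter beyond 1 count, and 1 was with upper-quartile factors. Acly lost its call without WT replicate 1 too. Fasn, the fatty acid synthase gene, was at -0.24 (adjusted p = 0.0668). In late-stage TAMs Scap rose (0.40, adjusted p = 0.0114) and Me1 fell (-0.66, adjusted p = 0.0485; list median -0.04), while Insig2 (-0.33, adjusted p = 0.0501), Fasn (0.25, adjusted p = 0.106), Srebf2 (0.17, adjusted p = 0.134) and Scd1 (-0.32, adjusted p = 0.418) were not called. There Me1 lost its call whichever of the 6 samples was left out, and Scap without early-stage replicate 2 or late-stage replicate 2 or 3.

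Of 17 cholesterol synthesis enzyme genes, 0 were called in AMPK-KO by edgeR (median 0.08), while 2 higher and 2 lower had an unadjusted p under 0.05 and DESeq2 called 0 higher and 1 lower. Fdps was at -0.26 on the log2 scale (adjusted p = 0.0665) and Sc5d at 0.31 (adjusted p = 0.0835). In late-stage TAMs 2 of the 17 fell (median -0.12), namely Msmo1 (37.9 to 28.2 CPM, -0.43, adjusted p = 0.0187) and Cyp51 (54.2 to 42.8 CPM, -0.34, adjusted p = 0.0475), both of which act after lanosterol. Sqle was at -0.21 (adjusted p = 0.181). Neither Msmo1 nor Cyp51 was called when early-stage replicate 2 or 1 of the late-stage replicates was left out, and Cyp51 was not called without early-stage replicate 3.

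Of 15 tested genes that share a family or a name with the 10 genes, 8 rose and 2 fell in AMPK-KO (median 0.32). Lpcat1, Lpcat2 and Lpcat4 were listed by name beside Lpcat3. The 8 that rose include Lpcat2, a lysophospholipid acyltransferase gene (71.2 to 103 CPM, 0.53, adjusted p = 6.06e-05), and Abcg3, a relative of Abcg1 (36.8 to 51.6 CPM, 0.49, adjusted p = 0.00026), together with Abca7. Scd1 was 1 of the 2 that fell. In late-stage TAMs 3 rose (median 0.15), namely Lpcat2 (61.9 to 84.9 CPM, 0.46, adjusted p = 0.00679), Abca2 (38.2 to 52.4 CPM, 0.45, adjusted p = 0.00906) and Abca7. Abca7 and Scd1 also stand in other lists. Without early-stage replicate 2, Abca2 and Abca7 lost their calls, which left 1 of the 3, and Lpcat2 lost its call without late-stage replicate 3. In AMPK-KO 1 of the 2 lower calls was lost without AMPK-KO replicate 1 or 3 or any 1 WT replicate.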

How the data were processed

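Bulk RNA-seq counts of 12 TAM samples were used. The deposited tables, 1 per comparison, hold raw gene counts, for which the authors used HISAT2 for mapping and featureCounts for counting. The submitters' processing notes name mm10 and GRCm38, while tool versions and the counting of strand are not given in the sources used here. Positions and exon lengths came from GENCODE M21 (GRCm38), which 54349 of the 55401 identifiers, all 10 genes included, matched with their version. Each table was filtered (filterByExpr), scaled by TMM and fitted in edgeR 4.0.16 (R 4.3.3; quasi-likelihood test), with Benjamini-Hochberg adjustment over all genes tested; a joint fit of 4 groups gave the difference of effects. The edgeR step was tested on simulated data. DESeq2 1.42.0 and other filters, factors and sample sets were alternatives.

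The 10 genes and all lists were chosen with earlier results of these data known. Named are the 10 genes, 17 fixed pathway genes, the 3 genes with the smallest adjusted p per list and comparison, and the 3 genes most like Abca1, of which some are not reported here. Acly, Scap, Lrp8, Smpdl3a, Scarb1 and Abca7, where outside this rule, were named after their values were seen.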

Additional observations from a re-analysis of the deposited data

How the results depend on the processing

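In AMPK-KO against WT, Nr1h3, Abcg1 and Apoe were called in all 13 alternatives and Nr1h2 in 10. In late-stage against early-stage TAMs, Scd2 was called in all 13, Abca1 in 12 (log2 fold change -0.71 to -0.52), Nr1h3 in 3 and Mylip in 2. The 4 differences between the comparisons were called in all 3 alternatives tried. With the study's threshold (DESeq2, unadjusted p under 0.05 and absolute log2 fold change above 1), 0 of the 10 genes were called in either direction in either comparison. The share of all genes that pass this rule is not given here. At the same fold limit and an edgeR adjusted p under 0.05, 3.34% of the genes tested passed in AMPK-KO and 1.87% between stages. With 1 sample left out, 2 to 3 of them rose and 1 fell in AMPK-KO, and 1 to 4 fell between stages, where DESeq2 gave 4. Of the pathway genes, 13 to 19 rose in AMPK-KO with 1 sample left out. Between stages, 3 to 15 rose and 2 to 14 fell with 1 sample left out, 13 rose and 14 fell with DESeq2, and 5 rose and 3 fell without a filter beyond 1 count. Over all genes, 1619 were called between stages, 2650 with DESeq2, 936 without that filter, 2835 without early-stage replicate 1, and 653, 680, 682 and 853 without late-stage replicate 2, early-stage replicate 2, late-stage replicate 3 and late-stage replicate 1. In AMPK-KO 3693 genes were called, and 2414 and 2419 without WT replicate 3 and AMPK-KO replicate 2.

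In the alternatives run, directions changed only for genes that were not called. With 1 sample left out, the log2 fold change in AMPK-KO ran from -0.134 to 0.0543 for Abca1, -0.112 to 0.0453 for Mylip, -0.110 to 0.0487 for Lpcat3, -0.0947 to 0.0614 for Lrp1, -0.0747 to 0.0440 for Mertk and -0.0111 to 0.156 for Ncor1. Between stages it ran from -0.0766 to 0.178 for Nr1h2, -0.299 to 0.244 for Apoe, -0.0271 to 0.0123 for Lpcat3, -0.0513 to 0.0152 for Arl4c, -0.0451 to 0.299 for Cyp27a1, -0.196 to 0.0189 for Lpl and -0.0379 to 0.156 for Ncor1. With at least 10 counts in every library, Lpcat3 was at 0.000916 between stages and -0.0102 for the difference of effects. Of 1250 values of single genes, 1074 kept direction and side of the threshold, 107 lost the call and 42 gained it, and the cause was not tested.

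Replicate numbers were not treated as pairs. The deviations of same-numbered samples from their group means correlated by 0.22, -0.03 and 0.04 in AMPK-KO and WT and by 0.05, -0.01 and 0.07 between stages. Not every sample correlated best with its own number, but with 3 samples per group these values cannot exclude a pairing. With the replicate number as a block, 3862 genes were called in AMPK-KO and 1417 between stages, the calls on the 10 genes were as without it, and Apoe between stages was at 0.0063. Of the other named genes, under the block Acly lost the call and Fasn, Fdps, Ncoa1 and Npc1 gained it in AMPK-KO, and Lrp1 and Scarb1 lost it between stages. Each of the 10 genes had at least 2387 counts in every library.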
